A study of Mus musculus with 10 samples.

Results

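*Esrp1* and *Esrp2* were the only 2 of 47 tested RNA-binding splicing regulators that were called lower by limma-voom in the first pharyngeal arch (PA1) of *Grhl2-/-* mouse embryos at E10.5, and *Rbm20* was the only 1 called higher, near the threshold. The regulators were chosen by symbol, as a list of 48 genes that covers the ESRP, RBM, RBFOX, QKI and KHDRBS, MBNL, PTBP, CELF, NOVA, SR, TRA2, hnRNP, PCBP and TIA proteins and SRRM4. They matched 50 of the 22114 gene identifiers in the count table, since *Srsf1* and *Rbm47* are each listed under 2 identifiers. The question was whether *Esrp1* and *Esrp2* are the only regulators of splicing whose transcripts differ when *Grhl2* is absent. Male embryos on a C57BL/6 background were used, 5 wild-type (*Grhl2+/+*) and 5 homozygous for a null allele of *Grhl2*, from intercrosses of heterozygotes. Each arch was a separate library of the whole PA1, so that epithelium, mesenchyme and any ganglion, muscle, vessel or blood cells in the dissected piece were measured together. In such bulk samples, fewer cells of a type and less RNA per cell cannot be told apart. The arches are named by their labels, WT1-566, WT1-568, WT3-588, WT5-566 and WT8-568 for wild-type and KO1-588, KO1-628, KO2-566, KO2-568 and KO3-604 for *Grhl2-/-*.

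Splicing regulators bind short sequences in or near an exon of the pre-mRNA and raise or lower its inclusion. SR and TRA2 proteins mostly favour inclusion from exonic sites, whereas hnRNP and PTBP proteins often repress it, and RBFOX, MBNL, CELF, NOVA, QKI and ESRP proteins act in either direction according to where they bind. ESRP1 and ESRP2 are found in epithelial cells, where they maintain the epithelial isoforms of transcripts such as *Fgfr2*, *Cd44*, *Ctnnd1* and *Enah*, while NOVA, SRRM4, RBFOX3 and several CELF proteins are characteristic of neurons.

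Between 22188454 and 28801378 reads per arch were counted on protein-coding genes, so that 3 reads corresponded to between 0.104 and 0.136 CPM (counts relative to library size, scaled by trimmed means of M-values), a floor that covers counting error only. *Grhl2* was between 31.8 and 40.5 CPM in wild-type arches and between 2.80 and 6.33 CPM in *Grhl2-/-* arches. Among the 14561 genes tested with limma-voom, 158 had lower and 128 had higher levels without *Grhl2* at a false discovery rate (FDR) below 0.01, which is the threshold used for every call. A gene is described as called or not called by limma-voom unless another tool is named. The arches also differed in markers of cell types. The wild-type arches WT1-566 and WT1-568 were low in neuron markers, with sums over 14 markers of 125 and 108 CPM against 676 to 1139 CPM in the other wild-type arches and 400 to 1484 CPM in *Grhl2-/-* arches. Their sums over 6 neural crest glia markers were also low, 49.1 and 46.1 CPM. The other wild-type arches had glia sums of 130 to 201 CPM, and the *Grhl2-/-* arches 77.4 to 229 CPM. Within the *Grhl2-/-* group, KO1-588 and KO2-568 had the lowest neuron sums, 400 and 468 CPM, and the highest sums over 7 muscle progenitor markers, 72.7 and 69.5 CPM against 42.2 to 47.0 CPM in the other 3. Other lists moved with genotype, although their sums overlapped. All 6 endothelial markers had positive differences with 0 called (sums of 310 to 349 CPM in wild-type and 342 to 402 CPM in *Grhl2-/-* arches; 2 at FDR below 0.05), and all 6 primitive erythroid markers negative ones with 0 called (3666 to 6229 and 2884 to 3901 CPM). Of 8 cranial mesenchyme markers, 7 had negative differences (2037 to 2639 and 1868 to 2177 CPM), and *Msx1*, a transcription factor gene named after its values were seen, was called lower at -0.66 (limma-voom FDR 0.00595). That call was made in 4 of 10 limma-voom fits with 1 arch left out (FDR 0.00309 to 0.0183). It was lost without both WT1-566 and WT1-568 (limma-voom FDR 0.0203). The part of these lists in the regulators' differences was not tested. No marker of the 8 cell type lists was at 0 in every arch.

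*Esrp1* and *Esrp2* encode paralogous proteins, and their reads could be told apart. Their coding sequences (Esrp1-201, 1977 bases, and Esrp2-201, 2151 bases, GENCODE M21 on GRCm38) were identical at 67.1% of 1941 aligned positions. The longest run shared by both was 35 bases, shorter than the 50-base reads, and 0 stretches of 50 bases of either coding sequence occurred in the other.

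Both epithelial splicing regulators were lower without *Grhl2* in all arches, and the genotypes did not overlap. *Esrp1* (chr4:11331933-11386783) was at 42.5, 45.4, 40.6, 35.7 and 40.9 CPM in WT1-566, WT1-568, WT3-588, WT5-566 and WT8-568, and at 17.0, 8.79, 7.65, 16.5 and 9.04 CPM in KO1-588, KO1-628, KO2-566, KO2-568 and KO3-604. The wild-type arches lay close together, whereas the *Grhl2-/-* arches fell into a higher pair, KO1-588 and KO2-568, and 3 lower arches. The fitted difference of *Esrp1* was -1.87 on the log2 scale (SE 0.189, 95% interval -2.28 to -1.46, limma-voom FDR 0.000188), or 3.65-fold lower. *Esrp2* (chr8:106130319-106136974) was at 14.4, 14.5, 11.4, 11.7 and 12.6 CPM across wild-type arches and at 4.46, 3.76, 3.43, 4.27 and 3.94 CPM in the *Grhl2-/-* arches, in the same order. Its *Grhl2-/-* arches lay within a narrower range than those of *Esrp1*, although KO1-588 and KO2-568 were again the highest. The fitted difference of *Esrp2* was -1.69 (SE 0.113, 95% interval -1.94 to -1.44, limma-voom FDR 7.59e-06), or 3.23-fold lower. With 1 arch left out at a time, both genes were called lower in all 10 limma-voom fits.

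**Figure D1:**
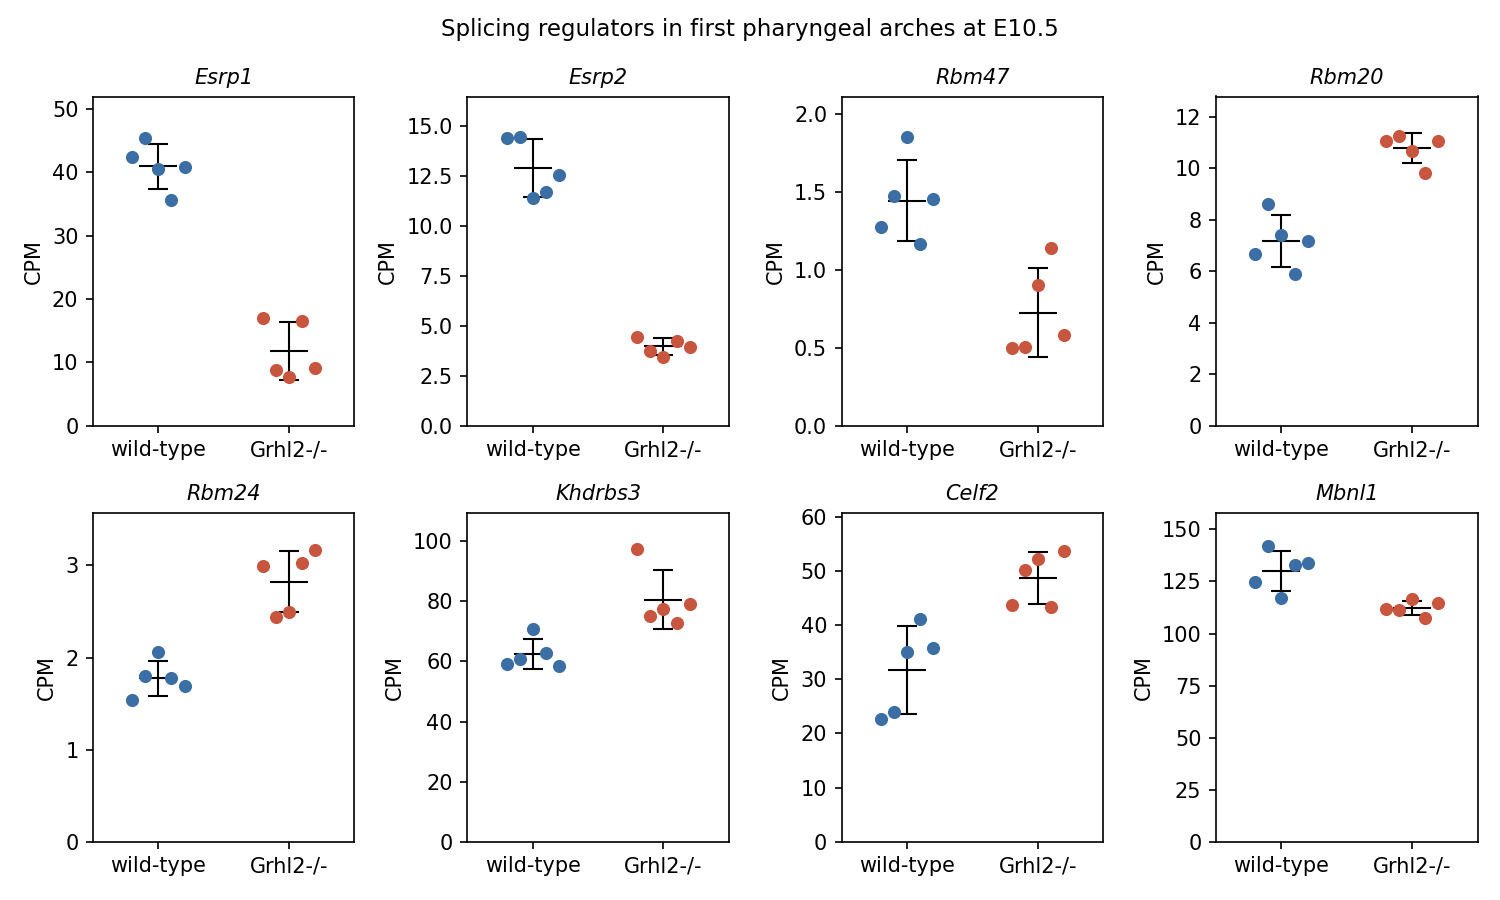
Normalized CPM of 8 splicing regulators in each of 5 wild-type (blue) and 5 *Grhl2-/-* (red) arches on linear axes that start at 0, with the mean and SD of each group in black. *Esrp1*, *Esrp2*, *Rbm47* and *Mbnl1* lie lower in all red points than in the blue ones, and *Rbm20*, *Rbm24*, *Khdrbs3* and *Celf2* lie higher.

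Many but not all markers of epithelium were also lower without *Grhl2*. Of 10 epithelial markers, 6 were called lower, and their summed level was 346 to 465 CPM in wild-type arches and 195 to 275 CPM in *Grhl2-/-* arches, with none at 0. *Epcam*, an adhesion molecule of epithelial cells, differed by -2.51 and *Cdh1*, which encodes E-cadherin, by -2.47 on the log2 scale, both larger in size than the differences of *Esrp1* and *Esrp2*. The paper lists *Epcam* and *Cdh1* among known GRHL2 targets and found GRHL2 bound at both in PA1. The keratins *Krt8* and *Krt18* were not called, with differences of -0.40 and -0.066 and limma-voom FDR of 0.203 and 0.848. *Krt19* and *Trp63* were not called either, with differences of 0.021 and -0.24 and limma-voom FDR of 0.951 and 0.0566. KO1-588 and KO2-568, the arches highest in *Esrp1* among the *Grhl2-/-* group, also had the highest epithelial sums, 275 and 271 CPM against 195 to 210 CPM in the other 3. The part of epithelial content in the ESRP results was not tested.

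Because *Esrp1* varied more than *Esrp2* among *Grhl2-/-* arches, the balance of both genes was compared within each arch. The log2 ratio of *Esrp1* to *Esrp2* was 1.56 to 1.83 in wild-type arches. It was 1.93 in KO1-588 and 1.95 in KO2-568, above every wild-type arch, and 1.22, 1.15 and 1.19 in KO1-628, KO2-566 and KO3-604, below every wild-type arch. The genotype means, 1.67 ± 0.10 and 1.49 ± 0.41 (SD, n = 5 each), differed by -0.18, which did not exceed the spread between arches (two-sided exact permutation test, p = 0.325, adjusted p = 0.434 over 8 pairs of paralogs).

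Among the other 45 regulators tested, 1 was called higher and 0 lower in *Grhl2-/-* PA1. Of all 47 tested, 2 were therefore called lower (4.26%, beside 1.09% of all genes tested) and 1 higher (2.13%, beside 0.879%). The paper had already reported the ESRP genes as downregulated, from the same libraries. The list was chosen with that result known. Every share called lower, here and under the settings below, includes the ESRP genes, so it is not a test of enrichment. At an unadjusted p below 0.05 there were 27 regulators of 47, beside 28.5% of all genes. The quasi-likelihood test of edgeR called the same 3 genes, beside 1.11% of all genes lower and 0.975% higher. DESeq2 called 8 regulators lower, beside 3.8%, and 4 higher, beside 3.57%. These were *Mbnl1*, *Mbnl3*, *Ptbp1*, *Srsf2*, *Srsf6* and *Hnrnpm* beside the ESRP genes, and *Rbm24*, *Khdrbs3* and *Celf2* beside *Rbm20*. With voomWithQualityWeights, limma called 2 lower, beside 1.46%, and 2 higher, beside 1.4%. With the neuron marker mean as a covariate, limma-voom called 2 lower, beside 0.804%, and 2 higher, beside 0.412%, and without the 2 arches low in neuron markers 2 lower, beside 0.62%, and 0 higher, beside 0.131%. At FDR below 0.05, *Rbm47*, *Mbnl1*, *Srsf2*, *Srsf6* and *Hnrnpm* joined the ESRP genes as lower, 7 of 47 beside 3.87% of all genes, and *Rbm24*, *Khdrbs3* and *Celf2* joined *Rbm20* as higher, 4 of 47 beside 3.84%. For 31 of the 44 regulators not called, the 95% interval lay within a 1.5-fold difference in either direction. The other 13, all with wild-type means of 52.6 CPM or less, had intervals that reached past 1.5-fold, and for *Celf3*, *Celf5*, *Celf6*, *Rbfox1*, *Rbfox3*, *Rbm47* and *Srrm4* the interval reached past 2-fold. Of the latter, *Celf3*, *Celf6* and *Srrm4* had intervals that included no difference, whereas those of *Celf5*, *Rbfox1*, *Rbfox3* and *Rbm47* did not include it, although none passed the FDR threshold.

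**Figure D2:**
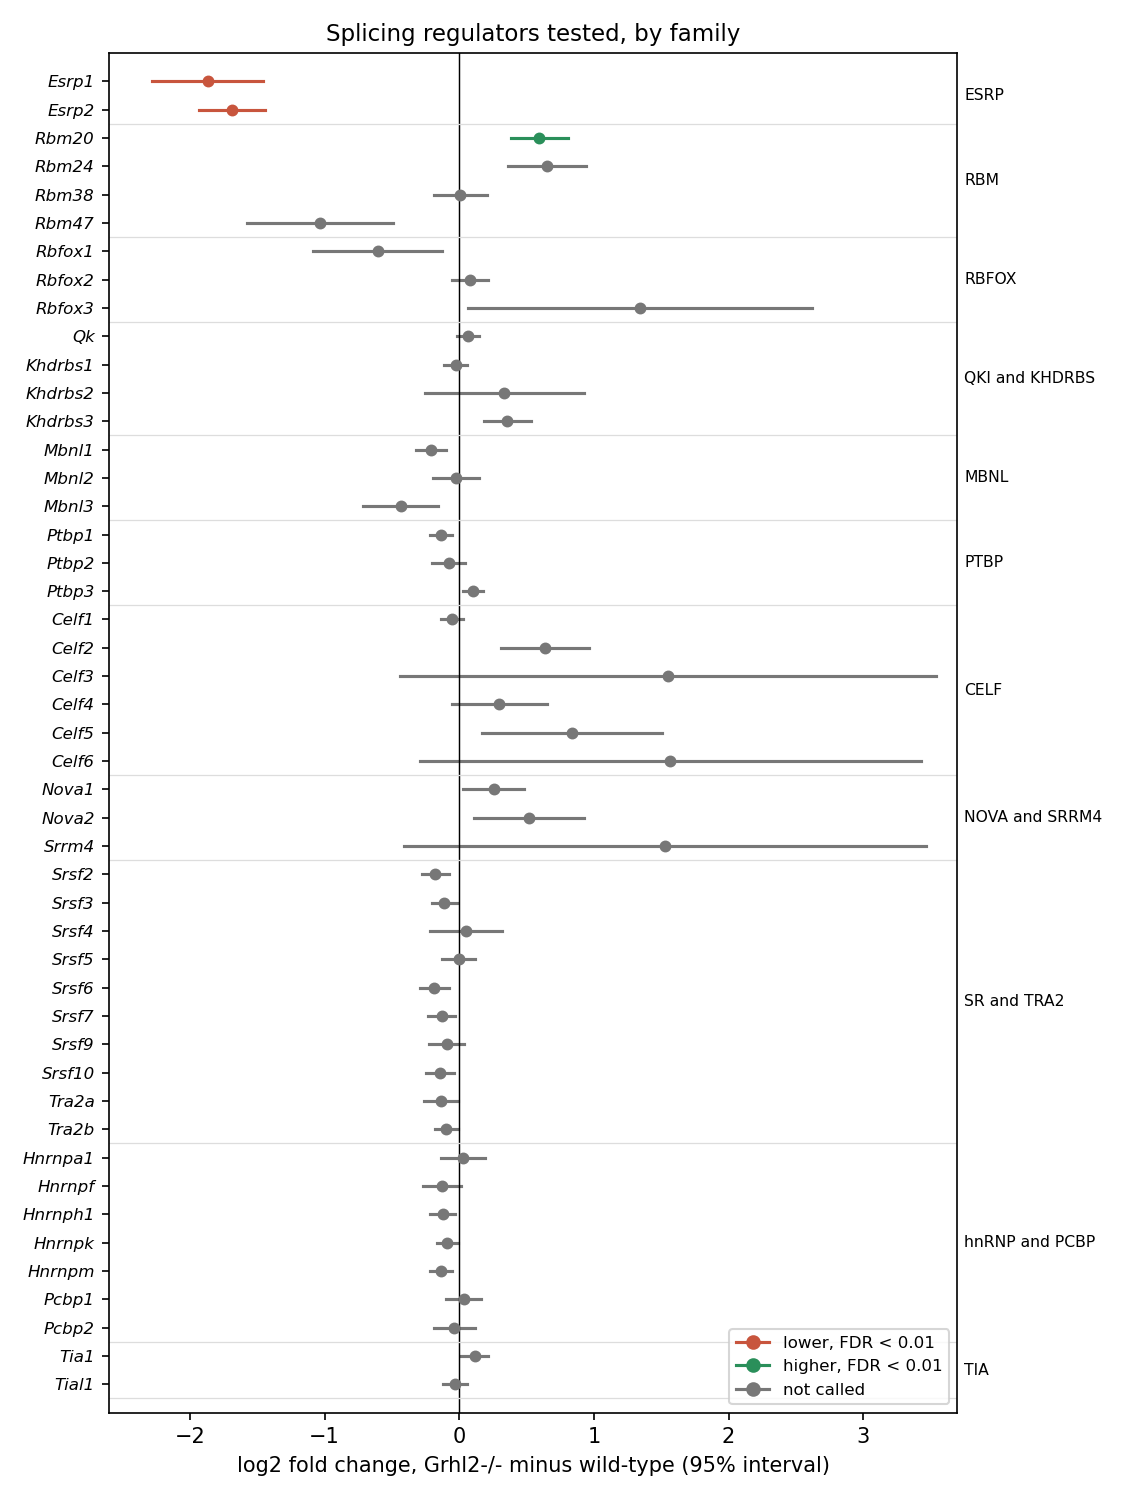
Fitted log2 fold changes (*Grhl2-/-* minus wild-type, points) with 95% intervals (lines) for the 47 regulators tested, grouped by family. *Esrp1* and *Esrp2* lie near -1.87 and -1.69, *Rbm20* lies at 0.59, and the widest intervals belong to *Celf3*, *Celf6* and *Srrm4*.

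The RBM regulators went in both directions. *Rbm20* (chr19:53677306-53867080), known for the splicing of titin in striated muscle, was at 6.68, 8.63, 7.42, 5.89 and 7.19 CPM across wild-type arches and at 11.1, 11.3, 10.7, 9.82 and 11.1 CPM in the *Grhl2-/-* arches, in the order given above. The genotypes did not overlap, and all 5 *Grhl2-/-* arches were high. The difference was 0.59 (SE 0.0966, 95% interval 0.38 to 0.80, limma-voom FDR 0.00490), or 1.51-fold. This call was close to the threshold, since it was made in 4 of the 10 limma-voom fits with 1 arch left out, with FDR between 0.00310 and 0.0167, and was lost without WT1-566, WT3-588, WT5-566, WT8-568, KO1-628 or KO3-604. Without the 2 wild-type arches low in neuron markers the difference was 0.65 with an FDR of 0.0149. With the number that ends each label as a further term in the model, it was 0.54 with a limma-voom FDR of 0.0441.

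*Rbm24*, which also acts in muscle splicing, was at 1.54 to 2.06 CPM in wild-type arches and at 2.44 to 3.17 CPM in *Grhl2-/-* arches, without overlap, and differed by 0.65 (SE 0.132, limma-voom FDR 0.0157). Of the 7 muscle progenitor markers none was called, and their sums were 43.1 to 53.7 CPM in wild-type and 42.2 to 72.7 CPM in *Grhl2-/-* arches. In KO1-588 and KO2-568, the arches highest in these markers, *Rbm24* was at 2.996 and 3.02 CPM, above KO1-628 and KO2-566 at 2.44 and 2.49 CPM and below KO3-604 at 3.17 CPM. The part of muscle content in these differences was not tested.

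*Rbm47*, an RNA-binding protein of endoderm and other epithelia, was at 1.27, 1.47, 1.85, 1.16 and 1.45 CPM across wild-type arches and at 0.499, 0.504, 0.900, 1.14 and 0.579 CPM in the *Grhl2-/-* arches, in the same order. These values rest on 28 to 53 reads per wild-type arch and 13 to 32 reads per *Grhl2-/-* arch, and KO2-568 came close to the lowest wild-type arch. After the ESRP genes, *Rbm47* had the largest negative difference of the 47, -1.04 (SE 0.248, 95% interval -1.58 to -0.49), but it did not pass the threshold (limma-voom FDR 0.0309). *Rbm38*, which binds and stabilizes transcripts, was not called, with a difference of 0.0070 and a 95% interval of -0.19 to 0.20.

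Of the KHDRBS proteins, relatives of QKI that bind UA-rich RNA, *Khdrbs3* was at 58.6 to 70.9 CPM in wild-type and at 72.9 to 97.5 CPM in *Grhl2-/-* arches. The groups did not overlap, and KO1-588 stood above the rest. The difference was 0.36 (SE 0.0809, limma-voom FDR 0.0256). *Khdrbs1*, which encodes the ubiquitous SAM68, was at 296 to 322 CPM in wild-type and 290 to 318 CPM in *Grhl2-/-* arches, a difference of -0.028. *Qk* and *Khdrbs2* were not called either, with differences of 0.066 and 0.34. In the muscleblind family, whose members favour adult splicing patterns in differentiated tissues, all 3 fitted differences were negative, and none was called by limma-voom, whereas DESeq2 called *Mbnl1* and *Mbnl3*. *Mbnl1* was at 117 to 142 CPM in wild-type and at 108 to 116 CPM in *Grhl2-/-* arches, without overlap, and differed by -0.21 (SE 0.0509, limma-voom FDR 0.0328). *Mbnl3* differed by -0.44 (SE 0.127, limma-voom FDR 0.0580), with overlapping groups, and *Mbnl2* by -0.027, a sign that turned in 3 of 20 alternative fits.

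The polypyrimidine tract-binding proteins were abundant, with small differences. *Ptbp1*, the general repressor, differed by -0.13 (limma-voom FDR 0.0520), *Ptbp2*, its neuronal relative, by -0.079 and *Ptbp3* by 0.10. *Ptbp1* was at 662 to 726 CPM in wild-type and 610 to 667 CPM in *Grhl2-/-* arches, so that the groups touched only at KO1-588 and WT5-566. Of the RBFOX proteins, which bind GCAUG, *Rbfox2* was the abundant member at 316 to 352 CPM in wild-type arches and differed by 0.077. *Rbfox1* was at 1.01 to 1.71 CPM in wild-type and at 0.659 to 1.32 CPM in *Grhl2-/-* arches and differed by -0.61 (SE 0.220, limma-voom FDR 0.103).

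*Celf3*, *Celf6*, *Srrm4* and *Rbfox3* had the largest positive differences and the widest errors of the 47 regulators by limma-voom. *Celf3* was at 0.363 and 0.360 CPM in WT1-566 and WT1-568, at 7.60, 13.4 and 9.53 CPM in WT3-588, WT5-566 and WT8-568, and at 4.57, 11.7, 14.3, 4.16 and 12.5 CPM in the *Grhl2-/-* arches. Only those 2 wild-type arches stood below the *Grhl2-/-* range, and they were the arches low in neuron and neural crest glia markers. *Celf3* differed by 1.55 (SE 0.910), *Srrm4* by 1.53 (SE 0.885), *Celf6* by 1.57 (SE 0.850) and *Rbfox3*, which encodes the neuronal antigen NeuN, by 1.34 (SE 0.585), and none was called. By edgeR these differences were smaller, 0.59 for *Celf3*, 0.86 for *Srrm4*, 0.98 for *Celf6* and 1.07 for *Rbfox3*, so that *Celf3* then stood below *Celf5*, *Rbm24* and *Celf2* at 0.84, 0.67 and 0.62, and DESeq2 gave 0.59, 0.86, 1.01 and 1.07. *Celf6* was counted with 1 and 0 reads in WT1-566 and WT1-568 and with 6 to 28 reads in the other arches, so that its fitted difference depends on the prior count. Without WT1-566 and WT1-568 the difference of *Celf3* was -0.27, that of *Srrm4* -0.054, that of *Celf6* 0.072 and that of *Rbfox3* 0.34. None of the 14 neuron markers was called, and all 14 had positive fitted differences, with a median of 1.99 by limma-voom and of 0.83 by both edgeR and DESeq2, which also called none. Without these 2 arches 8 of the 14 were negative and 6 positive, with a median of -0.038 and a range of -0.27 to 0.77, and *Tubb3* and *Stmn2* went from 1.69 and 1.82 to -0.20 and -0.038. Since the 2 arches were picked for being lowest in the same 14 markers, this drop of the markers was fixed by the choice. The part of neuron content in the differences of the 4 regulators was not tested.

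**Figure D3:**
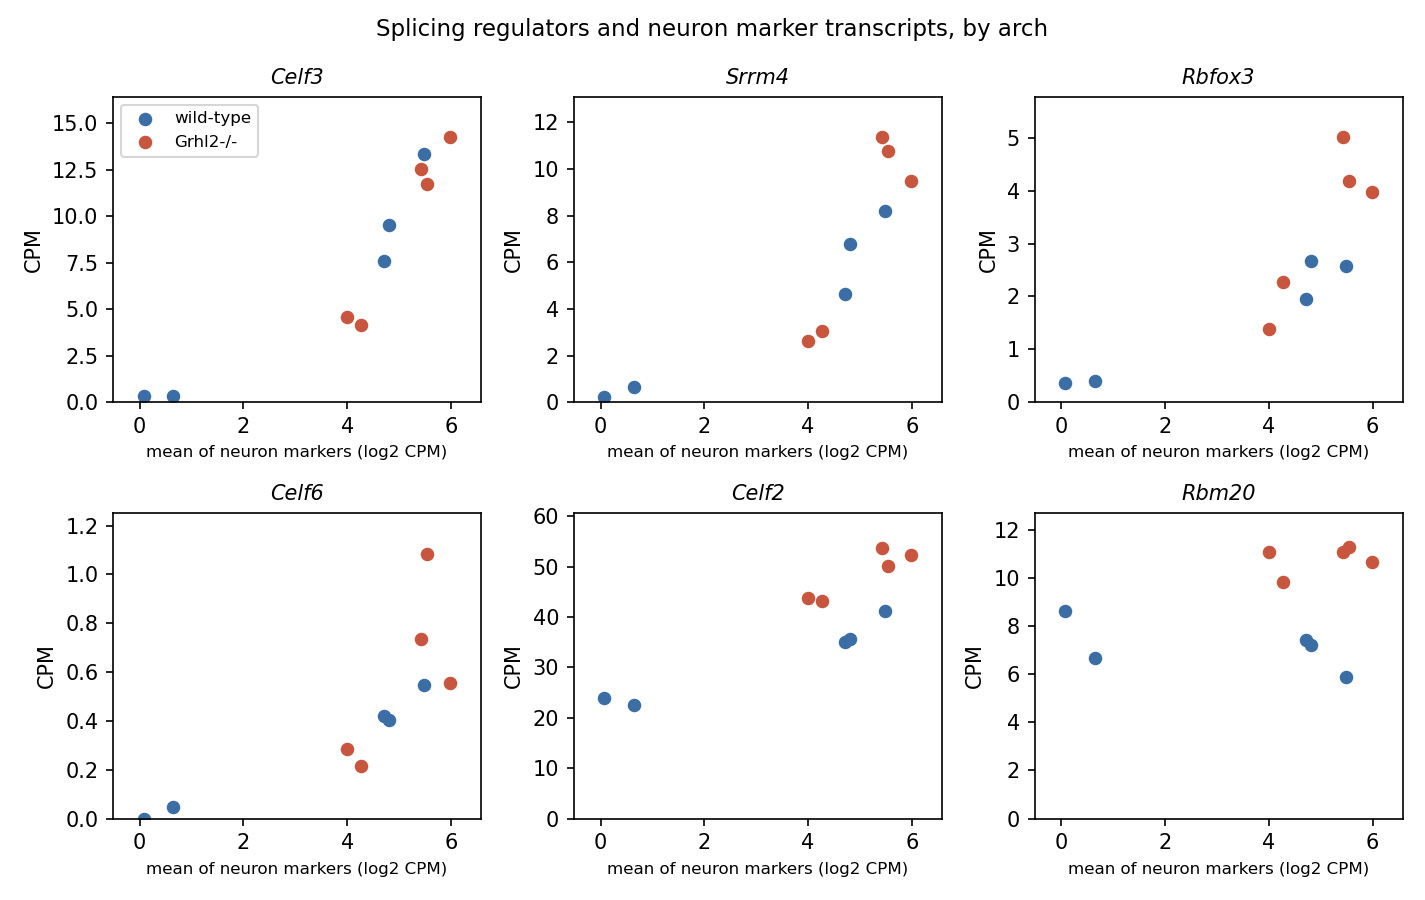
Normalized CPM of 6 splicing regulators (vertical axes, linear from 0) against the mean log2 CPM of 14 neuron markers (horizontal axes) in each wild-type (blue) and *Grhl2-/-* (red) arch. *Celf3*, *Srrm4*, *Rbfox3* and *Celf6* are low in the 2 wild-type arches at marker means of 0.65 and 0.07, whereas *Rbm20* is higher in all 5 red points than in the blue ones.

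*Celf2*, which is expressed in many tissues and is high in neurons and muscle, was intermediate. It was at 22.6 and 23.9 CPM in WT1-566 and WT1-568, at 35.1, 41.2 and 35.7 CPM in the other wild-type arches, and at 43.8, 50.2, 52.2, 43.2 and 53.6 CPM in the *Grhl2-/-* arches. All *Grhl2-/-* arches lay above all wild-type arches, also above the 3 wild-type arches that held neuron transcripts at the level of the *Grhl2-/-* group. The difference of *Celf2* was 0.64 (SE 0.149, limma-voom FDR 0.0282) and 0.36 without the 2 arches low in neuron markers (FDR 0.0875). With the neuron marker mean as a covariate it was 0.37, with an FDR of 0.00426, which is past the threshold. The part of neuron content in the difference of *Celf2* was not tested. *Celf1*, the ubiquitous member, was at 393 to 440 CPM in wild-type arches and differed by -0.056. *Celf4*, *Celf5*, *Nova1* and *Nova2* differed by 0.30, 0.84, 0.25 and 0.52 and were not called.

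The SR and TRA2 proteins, which bind exonic enhancers, showed small differences. Of the 10 tested, 9 had negative fitted differences, with a median of -0.12, and none was called by limma-voom, whereas DESeq2 called *Srsf2* and *Srsf6*. *Srsf2* differed by -0.18 (SE 0.0444, limma-voom FDR 0.0357), with 597 to 671 CPM in wild-type and 541 to 605 CPM in *Grhl2-/-* arches. *Srsf6* differed by -0.19 (SE 0.0485, limma-voom FDR 0.0411), with 582 to 634 CPM against 495 to 588 CPM. In both genes the groups overlapped only at WT5-566 and KO1-588. *Srsf10* differed by -0.15 without overlap (limma-voom FDR 0.0771), whereas *Srsf4* and *Srsf5*, at 0.051 and -0.0028, changed sign under other settings. *Srsf3*, *Srsf7*, *Srsf9*, *Tra2a* and *Tra2b* differed by -0.14 to -0.094. Of the 7 hnRNP and PCBP genes, 5 had negative differences, with a median of -0.088, and again none was called by limma-voom, whereas DESeq2 called *Hnrnpm*. *Hnrnpm*, at 582 to 649 CPM in wild-type and 537 to 581 CPM in *Grhl2-/-* arches, differed by -0.14 (limma-voom FDR 0.0441), and the other 6 by -0.13 (*Hnrnpf*) to 0.031 (*Pcbp1*). *Tia1* and *Tial1*, which bind U-rich sequences near 5′ splice sites, differed by 0.11 and -0.030.

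The negative differences of SR and hnRNP genes stood among many abundant genes with negative differences. Of the 25 regulators over 100 CPM, 20 were negative (80.0%), beside 66.5% of the 2800 genes over 100 CPM and 47.3% of all genes tested. With library size in place of the trimmed mean of M-values, 19 of the 25 were negative, beside 60.4%. The median over all 47 regulators was -0.028, beside 0.011 over all genes. Groups without overlap were found for 6 regulators with lower values in *Grhl2-/-* arches (*Esrp1*, *Esrp2*, *Rbm47*, *Mbnl1*, *Srsf10* and *Hnrnpm*) and 5 with higher values (*Rbm20*, *Rbm24*, *Khdrbs3*, *Celf2* and *Ptbp3*), beside 4.67% and 4.22% of all genes.

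The balance of related factors was also compared within each arch for 7 further pairs of paralogs. The log2 ratio of *Celf1* to *Celf2* was 3.74 ± 0.38 in wild-type and 3.03 ± 0.12 in *Grhl2-/-* arches (SD, n = 5 each; difference -0.71, two-sided exact permutation test, p = 0.00794, the smallest that 252 assignments allow, adjusted p = 0.0317). The groups did not overlap, and WT1-566 and WT1-568 were the highest at 4.14 and 4.12. The log2 ratio of *Khdrbs1* to *Khdrbs3* was 2.31 ± 0.15 in wild-type and 1.93 ± 0.20 in *Grhl2-/-* arches (SD, n = 5 each; difference -0.39, exact p = 0.00794, adjusted p = 0.0317), with KO1-588 the lowest at 1.60. In both pairs the second member, *Celf2* or *Khdrbs3*, had the larger fitted difference. By the same exact test with 1 arch left out, adjusted p of both pairs was 0.0635 without KO1-588, KO1-628, KO2-566 or KO3-604, 0.0423 without KO2-568 and 0.0317 without any 1 of the wild-type arches. Fewer arches allow fewer assignments, so adjusted p can rise without a smaller difference. Without KO1-588, for example, *Celf1* to *Celf2* differed by -0.74. The ratio of *Rbfox2* to *Rbfox1* differed by 0.70 with overlapping groups (exact p = 0.0159, adjusted p = 0.0423) and remained below 0.05 after adjustment only without WT3-588 or KO2-568. For *Mbnl1* to *Mbnl2*, *Pcbp1* to *Pcbp2*, *Ptbp1* to *Ptbp2* and *Tra2a* to *Tra2b*, adjusted p lay between 0.190 and 0.516 by the same exact test.

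Read counts divided by the exon length of each gene allow levels to be compared between genes. The highest wild-type levels were those of *Srsf2* at 217 ± 9.80, *Hnrnph1* at 182 ± 6.13, *Ptbp1* at 147 ± 5.44 and *Srsf7* at 144 ± 7.19 CPM per kb (SD, n = 5), of which *Ptbp1* and *Srsf7* did not differ beyond their spread. The ESRP genes were in the lower part of this range, with *Esrp1* at 6.50 ± 0.560 and *Esrp2* at 2.97 ± 0.333 CPM per kb in wild-type arches. In *Grhl2-/-* arches they were at 1.87 and 0.915 CPM per kb. Near *Esrp1* in wild-type arches stood *Mbnl1* at 6.95 ± 0.504 and *Mbnl3* at 6.02 ± 0.704 CPM per kb, which did not differ from *Esrp1* beyond their spread. *Rbm20* was at 1.05 and *Rbm47* at 0.201 CPM per kb, and the lowest were *Celf5* and *Celf6*, both at 0.078 CPM per kb.

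**Figure D4:**
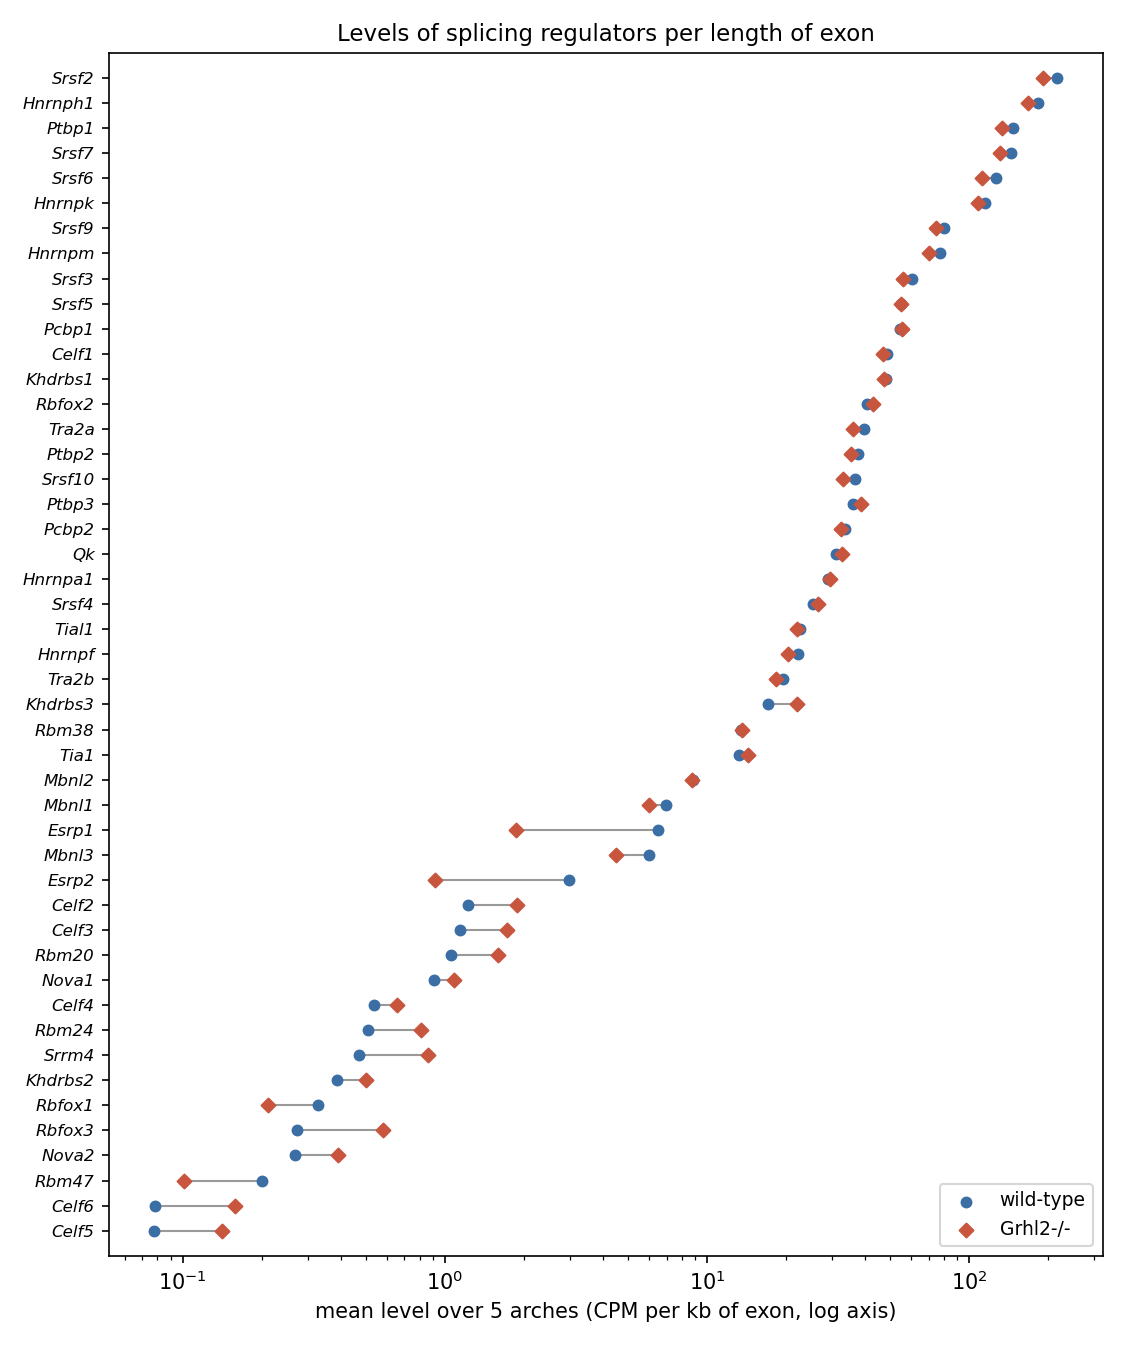
Mean level over 5 arches in CPM per kb of exon (log axis) for the 47 regulators tested, in wild-type (blue circles) and *Grhl2-/-* arches (red diamonds), ordered by the wild-type level. *Esrp1* falls from 6.50 to 1.87 and *Esrp2* from 2.97 to 0.915, while most SR and hnRNP genes lie at over 20 CPM per kb with both symbols close together.

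Outside the 48 symbols, a second list of 130 spliceosome and RNA-binding genes was examined, of which 127 were tested. In it 0 genes were called lower and 1 higher by limma-voom, beside 1.09% and 0.879% of all genes. At an unadjusted p below 0.05 there were 31 (24.4%, beside 28.5% of all genes), and edgeR also called 0 lower and 1 higher, beside 1.11% and 0.975%. The gene called was *Cpeb1*, a regulator of cytoplasmic polyadenylation and translation, at 0.105 to 0.327 CPM in wild-type and 0.541 to 1.40 CPM in *Grhl2-/-* arches (difference 2.20, SE 0.373, FDR 0.00595). Its wild-type arches were at or near the level of 3 reads, and the call was lost with 1 arch left out in all but the fits without WT5-566, KO1-588 or KO3-604, which gave FDR of 0.00474 to 0.00946 against 0.0109 to 0.0218 in the other 7. DESeq2 called 10 lower and 3 higher, beside 3.8% and 3.57% of all genes. Of the 39 core spliceosome genes tested, 36 had negative differences with a median of -0.11, beside 47.3% negative and a median of 0.011 over all genes. Of the 25 of them over 100 CPM, 24 were negative with a median of -0.13, beside 66.5% and -0.042 of all genes over 100 CPM. Among the 39, limma-voom and edgeR called 0, whereas DESeq2 called 6 lower and 0 higher. At an unadjusted limma-voom p below 0.05 there were 19 of these 39 genes (48.7%, beside 28.5%).

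The deposited values count reads per gene and do not separate isoforms, so the exons that ESRP proteins regulate were not analysed here. At the level of the whole gene, *Fgfr2* differed by 0.060, *Ctnnd1* by 0.048 and *Enah* by 0.015, and none was called. *Cd44*, a cell-surface receptor with variable exons, was at 4.59 to 6.52 CPM in wild-type and 5.98 to 8.93 CPM in *Grhl2-/-* arches (difference 0.34, SE 0.126, limma-voom FDR 0.110). For *Ctnnd1*, 56.7% of 50-base stretches also occur in another annotated gene.

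Promoter windows from RefSeq (GRCm38.p6, 250 bases before to 50 after the start) were matched for 40 of the 48 symbols, in 70 windows, and not for *Esrp1*, *Esrp2*, *Rbm20*, *Khdrbs1*, *Khdrbs3*, *Ptbp3*, *Rbfox2* and *Celf4*. The palindrome AACCGGTT, the site that Grainyhead-like factors prefer, was found in 0 of the 70 windows and in 0.146% of all 32851 windows, and AACCNGTT in 0 and 2.09%, with both strands searched. The shorter AACCGG, which the first motif contains, was found in 6 windows (8.57%, beside 6.83% of all), those of *Celf2*, *Celf3*, *Celf5*, *Mbnl1*, *Rbm47* and *Tra2b*. A match describes letters in a window and is not evidence of binding. Since AACCGGTT is so rare among all windows, finding 0 in 70 carries little information, and sites outside the windows were not searched. The paper reported GRHL2 binding in PA1 at an enhancer of *Esrp1* and in an intron of *Esrp2*, both genes without a matched window here.

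Of the 50 identifiers, 3 were not tested because no arch reached 10 reads. The *Srsf1* identifier at chr11:88047373-88053755 (ENSMUSG00000018379) had 0 reads in all 5 wild-type arches and 1 read in each of 4 *Grhl2-/-* arches, and the other (ENSMUSG00000098301) had 0 reads in all arches, as had the second *Rbm47* identifier (ENSMUSG00000106449). *Srsf1* encodes a splicing factor used by most cells, and these counts are not read as its level. The latter 2 identifiers are not in GENCODE M21. Counting could also mix reads of near-identical copies, since for 12 of the regulators over 10% of 50-base stretches occur in another gene, up to 61.9% for *Hnrnpf*. For 19 regulators, among them *Esrp1*, *Esrp2*, *Rbm47* and *Celf2*, exons overlap an annotated gene on the opposite strand. The libraries kept strand, but the strand setting of the counting is not given in the sources used here beyond the word reverse in the name of the deposited table.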

How the data were processed

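RNA from whole PA1s of 5 wild-type and 5 *Grhl2-/-* male embryos at E10.5 was made into stranded libraries depleted of ribosomal RNA and read as 50-base single-end reads. The authors aligned the reads to GRCm38 with STAR and deposited counts per gene from featureCounts for 22114 protein-coding genes, without normalization. Versions of these programs and the annotation release are not given in the sources used here, and the submitters' processing notes list edgeR 3.18.1 and limma 3.32.7. A second deposited table holds the authors' comparison of the genotypes and was not used.

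The 14561 genes that reached 10 counts in any arch (1 arch sufficed) were normalized by TMM and tested with limma-voom (limma 3.58.1, edgeR 4.0.16, R 4.3.3) with genotype as the only term. The study states limma-voom, TMM and the FDR threshold, while the filter and the model term were chosen here. FDR values are Benjamini-Hochberg adjusted over all genes tested, with calls made below 0.01. CPM are normalized by the same factors, and log2 CPM used a prior count of 0.5. Ratios of paralogs were tested by two-sided exact permutation over 252 assignments of arches, adjusted over 8 pairs. Named were the 48 symbols, *Grhl2*, 4 ESRP-regulated genes, called genes of a second splicing list and 6 cell markers. The markers *Msx1*, *Krt19* and *Trp63* were named in addition, after their values were seen. The members and lists were chosen with earlier results of these data known. Total counts were 22188454 to 28801378 per arch, and floors of 3 counts cover counting error only. No 2 arches of a genotype agreed within sampling noise (chi-square per gene of 6.98 to 25.2 over 20 pairs). The labels do not say whether embryos shared a litter. On simulated counts of 14376 genes with 200 changed 2-fold, limma-voom recovered 90.5% with 1 false call, edgeR 90% with 2, and DESeq2 1.42.0 93.5% with 20. The changed genes were drawn from well-counted genes only, so these rates do not cover genes on few reads or smaller differences. As alternatives, the fit was replaced by the quasi-likelihood test of edgeR or by DESeq2, and further settings were other scalings and filters, voomWithQualityWeights, the label number as a block, a neuron marker covariate, a threshold of 0.05, a prior count of 2, leaving out each arch, and, chosen after seeing the data, leaving out both arches lowest in neuron markers. Coordinates, exon lengths and overlaps are from GENCODE M21 (GRCm38).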

Additional observations from a re-analysis of the deposited data

Results flagged for a closer look

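In 4 of 110 groups of 5 arches (47 regulators and 8 paralog ratios in each genotype), 1 arch stood apart from the others by Dixon's test at the 95% level, while chance flags about 1 in 20 groups, or 5.5 of 110. All values are log2 CPM. *Mbnl3* was lowest in the wild-type arch WT3-588 at 5.38, with the next arch at 5.77. *Nova2* was lowest in the wild-type arch WT1-566 at 0.61 on 33 reads, with the next at 1.17. *Pcbp2* was highest in the wild-type arch WT1-568 at 7.74, with the next at 7.40. *Khdrbs3* was highest in the *Grhl2-/-* arch KO1-588 at 6.61, with the next at 6.31. Without that arch the difference of *Khdrbs3* was 0.28 in place of 0.36, with a limma-voom FDR of 0.0158.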

How the results depend on the processing

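*Esrp1* and *Esrp2* were called lower under each of the 20 alternatives, with differences from -2.03 to -1.62 and from -1.74 to -1.57. The number of regulators called lower was 2 under the main settings, 8 with DESeq2 and 7 at FDR below 0.05. The number called higher was 1 under the main settings, 4 with DESeq2, 2 with voomWithQualityWeights (*Rbm20* and *Rbm24*), 2 with the neuron marker covariate (*Rbm20* and *Celf2*), 0 without the 2 arches lowest in neuron markers and 4 at FDR below 0.05. Leaving out 1 arch at a time gave 2 to 3 lower, with *Srsf6* added without KO1-588, and 0 to 1 higher. Of all genes, DESeq2 called 553 lower and 520 higher, an FDR below 0.05 gave 564 and 559, omission of the 2 arches low in neuron markers gave 90 and 19, voomWithQualityWeights gave 204 higher and the neuron marker covariate 60 higher. With 1 arch left out, 110 to 249 genes were lower, the highest number without KO1-588, and 42 to 143 higher, with 136 and 143 without KO1-588 and KO2-566 and 76 or fewer without any other arch. Of the second splicing list, DESeq2 called 10 lower and 3 higher, voomWithQualityWeights 1 and 2, and an FDR below 0.05 gave 8 and 4, while the neuron marker covariate and omission of the 2 arches each gave 0 higher, and with 1 arch left out 0 to 2 were lower and 0 to 2 higher, with 2 and 2 without KO1-588. The cause of these shifts was not tested.

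The label number as a replicate block gave 69 lower and 60 higher genes, 2 regulators lower, 1 higher and 0 higher of the second list. The single regulator higher was then *Khdrbs3* (FDR 0.00889) and not *Rbm20* (limma-voom FDR 0.0441). Arches with the same number correlated at 0.0766 on average over 5 pairs (-0.398 to 0.561) and those with different numbers at -0.0157 over 20 pairs, and WT1-566 did not correlate best with an arch of its own number, so the number was not taken to pair them. This check cannot exclude that arches with the same number came from the same litter. For the paralog ratios, leaving out 1 arch gave -0.81 to -0.60 for *Celf1*/*Celf2*, -0.44 to -0.31 for *Khdrbs1*/*Khdrbs3* and 0.57 to 0.84 for *Rbfox2*/*Rbfox1*. Adjusted exact p was then 0.0317 or above, and above 0.05 in 4, 4 and 8 of these 10 sets of 9 arches. Such sets allow fewer than 252 assignments, which alone can raise p.

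Of 59 named genes, a count without *Msx1*, *Krt19* and *Trp63*, 15 changed sign under some alternative, none of them called. The neuron marker covariate gave -0.28 for *Celf3*, -0.038 for *Srrm4*, 0.045 for *Srsf5*, 0.0065 for *Tial1*, 0.034 for *Pcbp2*, -0.042 for *Stmn2*, -0.23 for *Tubb3* and 0.064 for *Krt18*. Omission of the 2 arches low in neuron markers gave -0.27 for *Celf3*, 0.016 for *Mbnl2*, -0.054 for *Srrm4*, 0.0069 for *Srsf5*, 0.0021 for *Tial1*, 0.023 for *Pcbp2*, -0.038 for *Stmn2* and -0.20 for *Tubb3*. The replicate block gave -0.10 for *Rbm38*, -0.068 for *Srsf4*, -0.076 for *Hnrnpa1*, -0.0055 for *Pcbp1*, -0.029 for *Enah*, -0.0046 for *Ctnnd1* and 0.027 for *Krt18*. *Mbnl2* was at 0.0047 with voomWithQualityWeights, and *Srsf5* at 0.00045 with edgeR and 0.015 with library size alone. With 1 arch left out, the ranges were -0.012 to 0.035 for *Enah*, -0.030 to 0.068 for *Hnrnpa1*, -0.20 to 0.033 for *Krt18*, -0.071 to 0.034 for *Mbnl2*, -0.0080 to 0.082 for *Pcbp1*, -0.067 to 0.040 for *Pcbp2*, -0.075 to 0.055 for *Rbm38*, -0.025 to 0.14 for *Srsf4*, -0.052 to 0.039 for *Srsf5* and -0.048 to 0.0022 for *Tial1*.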
